A study of Homo sapiens with 8 samples.

Results

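The genes described here are the peroxiredoxins PRDX1 to PRDX6, thioredoxin (TXN), the glutathione peroxidase GPX4, the superoxide dismutase SOD1 and catalase (CAT). These 10 genes were chosen by name, as redox enzymes related to the redox function of APE1, and found through their GENCODE 44 symbols among the 58302 genes of the count table. Of the 10 genes, 8 had enough counts to be tested among 5368 tested genes, CAT fell under the filter on low counts, and PRDX2 had no count in any library. RNA-seq had been performed on A549 cells, an established human lung adenocarcinoma line, to find the RNAs that differ after silencing of APE1, the DNA repair endonuclease and redox factor encoded by APEX1. All cells had been transiently transfected with DharmaFECT, either with an siRNA against APE1 (4 libraries, labelled siAPEX1) or with a scramble control siRNA (4 libraries, labelled siCTRL). No untransfected cells, rescue or further siRNA was analysed here, so an effect of silencing and an effect of this one siRNA cannot be told apart.

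Peroxiredoxins are abundant peroxidases that reduce hydrogen peroxide and organic peroxides with a cysteine, the peroxidatic cysteine, which is oxidized in each cycle. Thioredoxin, itself kept reduced by thioredoxin reductase and NADPH, then reduces the typical peroxiredoxins again. APE1 is also known as Ref-1 because it keeps certain transcription factors reduced, a function in which thioredoxin is a partner.

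The catalytic cysteine of each peroxiredoxin and the active site of thioredoxin are shown by their coding sequence, read from the Ensembl canonical transcripts of GENCODE 44 on GRCh38, because these codons define the chemistry the genes share. The capitals mark the peroxidatic cysteine codon in the peroxiredoxins, the codons of the Cys-Gly-Pro-Cys active site in TXN and the in-frame TGA codon of GPX4, which is read as selenocysteine and not as a stop.
PRDX1: acctttgtgTGCcccacggag
PRDX2: acttttgtgTGCcccaccgag
PRDX3: acctttgtgTGTcctacagaa
PRDX4: acatttgtgTGTccaactgaa
PRDX5: acccctggaTGTtccaagaca
PRDX6: accccagtgTGCaccacagag
TXN: gccacgtggTGTGGGCCTTGCaaaatgatc
GPX4: gcctcccagTGAggcaagacc
The stretch of PRDX1 lies at chr1:45515749-45515769 on the minus strand, in exon 3 of 6, and holds codon 52. The stretch of PRDX2 lies at chr19:12801011-12801031 on the minus strand, in exon 3 of 6, and that of PRDX3 at chr10:119173851-119173871 on the minus strand, in exon 4 of 7. The stretch of PRDX4 lies at chrX:23674991-23675011 on the plus strand, in exon 3 of 7. In PRDX5 the stretch runs from exon 2 into exon 3 of 6 on chromosome 11. The stretch of PRDX6 lies at chr1:173481360-173481380 on the plus strand, in exon 2 of 5, and holds codon 47. The active site of TXN lies at chr9:110251373-110251402 on the minus strand, in exon 2 of 5, and begins at codon 32. The selenocysteine codon of GPX4 is codon 73 and lies within chr19:1105394-1105414 on the plus strand, in exon 3 of 7. The cysteine was followed by a proline in PRDX1 to PRDX4, the typical peroxiredoxins that work as dimers and hold a further resolving cysteine, by a serine in PRDX5 and by a threonine in PRDX6, which has no resolving cysteine.

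APEX1, the gene that the siRNA targets, had 51, 61, 64 and 47 counts in the libraries labelled siCTRL and 21150, 19470, 27916 and 20767 counts in those labelled siAPEX1, a difference opposite to the one that the label names. Every direction below is therefore that of the libraries as labelled, and what these APEX1 counts stand for was not tested. The libraries labelled siCTRL held between 1639796 and 1949886 counts on genes and those labelled siAPEX1 between 1348386 and 1619500, so that library size and label run together. The nuclear protein-coding genes without APEX1 took 15.4% ± 0.296 (SD, n = 4) of the counts in the siCTRL libraries and 12.2% ± 0.323 (SD, n = 4) in the siAPEX1 libraries. Levels are given as CPM, normalised read counts for which the size of each library was adjusted with edgeR's TMM factors, and these factors ranged from 1.10 to 1.14 and from 0.873 to 0.919 in these groups. The 6 epithelial markers (KRT7, KRT8, KRT18, KRT19, EPCAM and CDH1) were all detected in both groups, at a summed 566.7 to 693.4 CPM in the siCTRL libraries and 220.8 to 287.4 CPM in the siAPEX1 libraries, and the 6 aldo-keto reductase and aldehyde dehydrogenase genes for which A549 is known at 1041 to 1169 CPM and 1183 to 1303 CPM. Of the markers of other cell types, CD3E, PECAM1 and CDH5 were at 0 in all libraries, PTPRC had 1 count in 1 siAPEX1 library, CD14 had 6, 9, 6 and 5 counts in the siCTRL libraries and 2, 0, 0 and 1 in the siAPEX1 libraries, and the summed endothelial and fibroblast markers stayed at or below 7.19 CPM in every library. The 4 keratins were lower in the siAPEX1 libraries, with log2 fold changes from -2.31 (KRT19) to -1.01 (KRT8), while CDH1, the E-cadherin gene, was higher at 12.9 CPM ± 0.491 and 24.3 CPM ± 5.59 (SD, n = 4 each, log2 fold change 0.92, edgeR adjusted p = 2.45e-04). These differences moved with the label, and their part in the results below was not tested.

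Thioredoxin was the only one of the 8 tested genes that passed the test, and TXN was 1.32-fold higher in the siAPEX1 libraries. The estimates of the 8 genes divided evenly around 0, with PRDX1, PRDX3 and SOD1 above it together with TXN, and PRDX4, PRDX5, PRDX6 and GPX4 below it, although PRDX1 and SOD1 turned to -0.13 and -0.29 on the log2 scale with library size alone. Of the 8 genes tested, 0 were called lower at an adjusted p of at most 0.05 and 1 (12.5%) was called higher, where 15.8% of all genes tested were called lower and 15.9% higher (edgeR's quasi-likelihood test, Benjamini-Hochberg adjustment over 5368 genes). DESeq2 called 0 lower as well. At an unadjusted p under 0.05 in edgeR's test, PRDX6 was lower and PRDX3 higher besides TXN. With DESeq2 the unadjusted p was 0.0885 for PRDX6 and 0.150 for PRDX3. With a fall of 1 or more on the log2 scale asked for in addition, 0 of the 8 were called, against 5.68% of all genes tested. The median log2 fold change of the 8 genes was -0.13 and that of the 4856 nuclear protein-coding genes tested -0.03. None of the 8 intervals reached a log2 change of 1 in either direction.

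**Figure D1:**
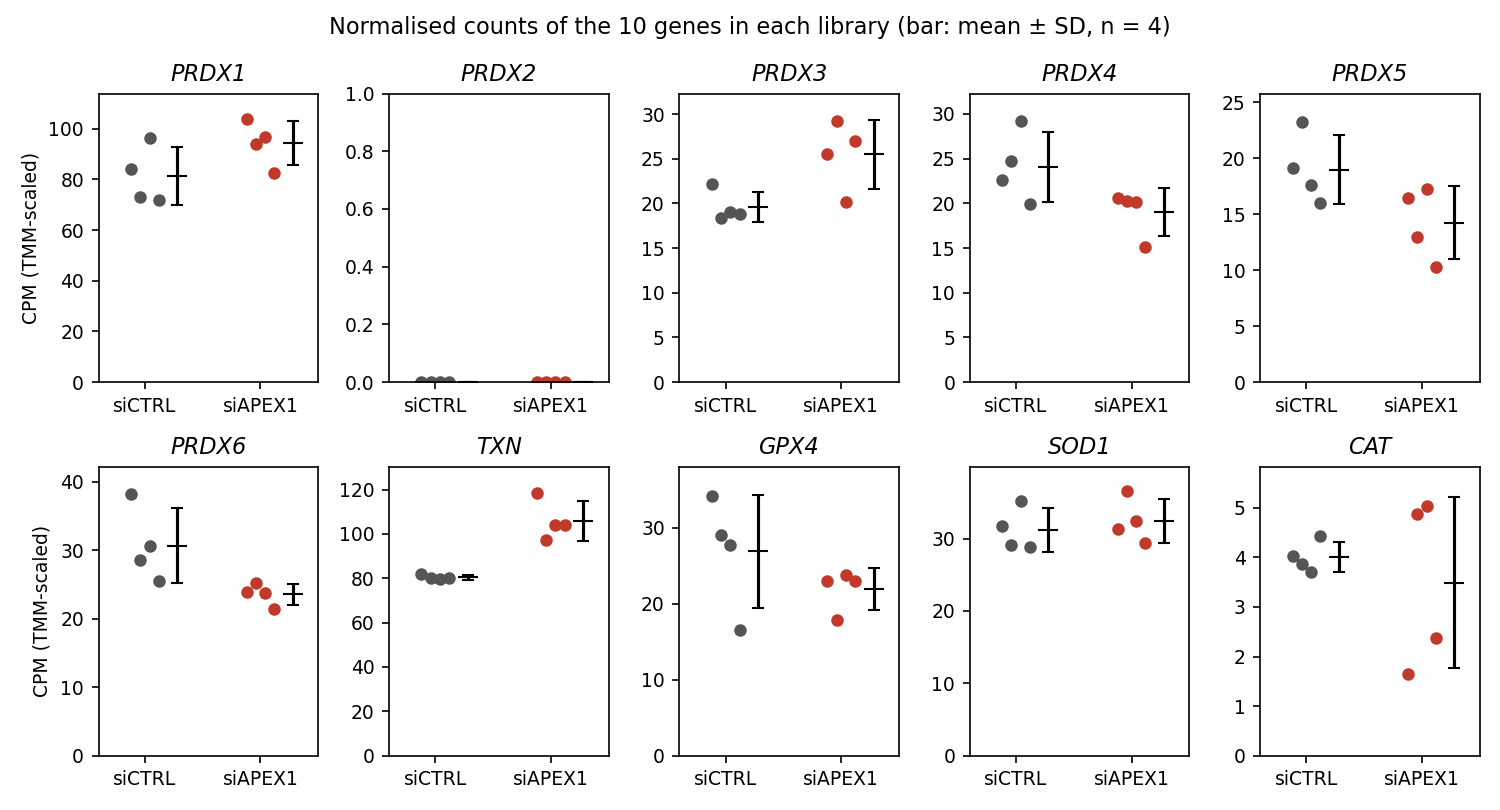
Normalised counts (CPM, TMM-scaled, linear axes from 0) of the 10 genes in each of the 4 siCTRL (grey) and 4 siAPEX1 (red) libraries, with the mean ± SD beside the points. The TXN points of the siAPEX1 libraries (97.4 to 118.6 CPM) all lie above those of the siCTRL libraries (79.7 to 82.0 CPM), those of PRDX6 all lie below, and PRDX2 is at 0 throughout.

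Thioredoxin, the small disulfide reductase that serves peroxiredoxins and many other proteins, was measured from 163, 165, 172 and 145 counts in the siCTRL libraries and 144, 120, 144 and 131 counts in the siAPEX1 libraries. Scaled, these were 82.0, 79.9, 79.7 and 80.2 CPM against 118.6, 97.4, 103.8 and 104.1 CPM. All 4 siAPEX1 libraries were above all 4 siCTRL libraries, and the siCTRL libraries had a coefficient of variation of 1.28%. How many of all genes tested had this order was not counted, while 14.9% had the reverse order. The mean was 80.5 CPM ± 1.03 (SD, n = 4) against 106 CPM ± 8.96 (SD, n = 4). The difference was 0.40 on the log2 scale (standard error 0.103, 95% interval 0.19 to 0.60), and the adjusted p in edgeR's test was 0.00251. By an exact two-sided permutation test of the CPM the p was 0.0286, the smallest that 4 libraries against 4 can give. This p follows from the lack of overlap, is not adjusted over genes and was the same for PRDX6. Before scaling, the siAPEX1 libraries all held fewer TXN counts than any siCTRL library, and the call changed with the scaling: with library size alone the log2 fold change was 0.05 (adjusted p = 0.708), and with no filter on low counts it was 0.30 (adjusted p = 0.0729).

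PRDX1, a cytosolic peroxiredoxin and a main substrate of thioredoxin, had 84.0, 73.1, 96.4 and 71.9 CPM in the siCTRL libraries and 103.8, 94.1, 96.6 and 82.6 CPM in the siAPEX1 libraries. The groups overlapped, with 2 siAPEX1 libraries above the highest siCTRL library. The log2 fold change was 0.21 (standard error 0.112, 95% interval -0.02 to 0.43, edgeR adjusted p = 0.160), and it was -0.13 with library size alone. PRDX2, the other cytosolic member of this type, was listed at 0 counts in all 8 libraries. A floor of 3 counts corresponded to 1.39 to 1.66 CPM in the siCTRL libraries and to 2.16 to 2.47 CPM in the siAPEX1 libraries, so PRDX2 could have been present below these levels, and no fold change is given. The floor covers counting error only. Reads of PRDX2 that the counting left out, as from shared sequence, are not covered by it, so it is not an upper limit of the PRDX2 RNA. Of the 25-base words of its canonical transcript 40.8% also occurred in transcripts of other genes, among them its antisense lncRNA ENSG00000267062 with 22.4%, which had 0 counts, and the overlapping gene HOOK2, which shares no exonic base with it, had 3 to 11 counts.

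PRDX3, the mitochondrial peroxiredoxin, had 22.1, 18.4, 19.0 and 18.8 CPM in the siCTRL libraries and 25.5, 29.2, 20.2 and 27.0 CPM in the siAPEX1 libraries. In 3 of the 4 siAPEX1 libraries it was above the highest siCTRL library, and replicate 3 was not. The log2 fold change was 0.37 (standard error 0.172, 95% interval 0.02 to 0.72), with an unadjusted p of 0.0369 and an adjusted p of 0.0972 in edgeR's test. Without siAPEX1 replicate 3 the adjusted p was 0.0389, with a log2 fold change of 0.50. PRDX3 thus had an estimate close to that of TXN, with a wider interval and fewer counts (28 to 44 in a library).

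**Figure D2:**
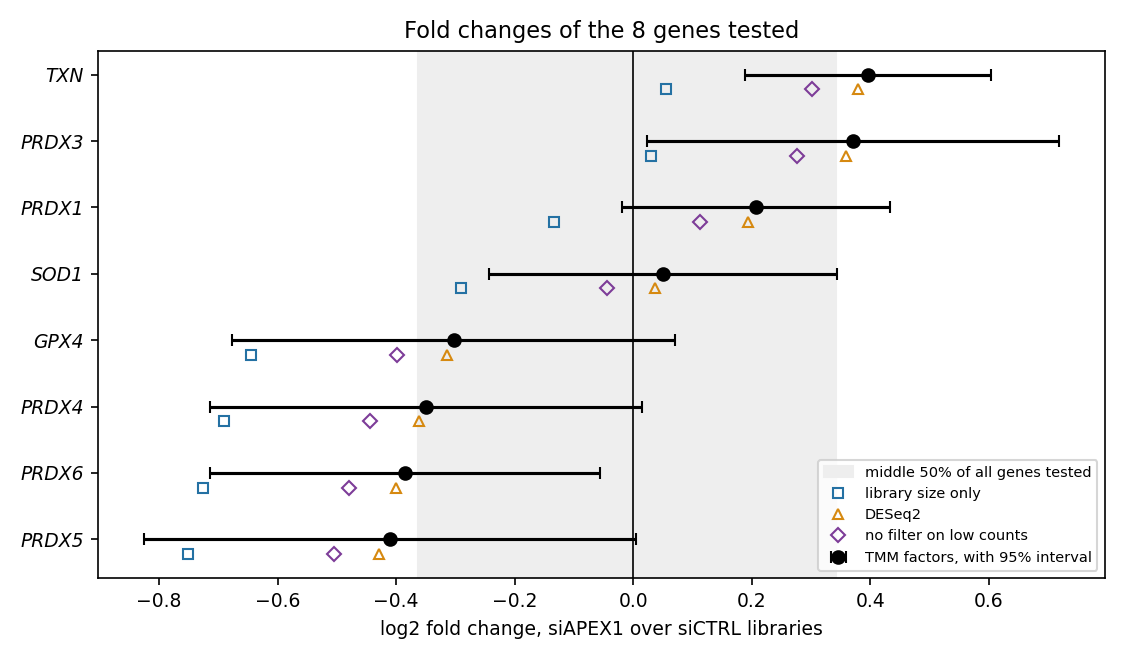
Log2 fold changes (siAPEX1 over siCTRL) of the 8 genes tested, with 95% intervals (black), the estimates by 3 other settings (open symbols) and the middle 50% of all genes tested as a grey band from -0.36 to 0.34. TXN and PRDX3 lie highest at 0.40 and 0.37, and with library size alone every estimate sits further left.

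PRDX4, the peroxiredoxin of the endoplasmic reticulum, which is also secreted, had 22.6, 24.7, 29.2 and 19.9 CPM in the siCTRL libraries and 20.6, 20.3, 20.2 and 15.1 CPM in the siAPEX1 libraries. Only siAPEX1 replicate 4 lay below the lowest siCTRL library. The log2 fold change was -0.35 (standard error 0.180, 95% interval -0.71 to 0.02, edgeR adjusted p = 0.140). PRDX5, an atypical peroxiredoxin found in mitochondria, peroxisomes and cytosol, had 19.1, 23.2, 17.6 and 16.0 CPM in the siCTRL libraries and 16.5, 13.0, 17.3 and 10.3 CPM in the siAPEX1 libraries. Its groups overlapped as well, with 2 siAPEX1 libraries below the lowest siCTRL library. The log2 fold change was -0.41 (standard error 0.205, 95% interval -0.83 to 0.00428, edgeR adjusted p = 0.126), and without siAPEX1 replicate 4 it was -0.26 (adjusted p = 0.407).

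PRDX6, the peroxiredoxin that uses glutathione in place of thioredoxin and also acts as a phospholipase, had 76, 59, 66 and 46 counts in the siCTRL libraries and 29, 31, 33 and 27 counts in the siAPEX1 libraries. Scaled, these were 38.2, 28.6, 30.6 and 25.5 CPM against 23.9, 25.2, 23.8 and 21.4 CPM. All 4 siAPEX1 libraries lay below all 4 siCTRL libraries, although the highest siAPEX1 library (25.2 CPM) was close to the lowest siCTRL library (25.5 CPM). Such an order was found for 14.9% of all genes tested, and for 1 of the 8 genes here. The mean was 30.7 CPM ± 5.43 (SD, n = 4) against 23.6 CPM ± 1.55 (SD, n = 4). The log2 fold change was -0.38 (standard error 0.163, 95% interval -0.71 to -0.06), with an adjusted p of 0.0674 in edgeR's test, which did not pass the threshold. It did pass without siCTRL replicate 4 (adjusted p = 0.0352), with no filter on low counts (0.0490) and in the set of genes that reached 10 counts in all libraries (0.0223). It was further from the threshold with DESeq2 (adjusted p = 0.320), without siCTRL replicate 1 (0.244) and without siAPEX1 replicate 4 (0.198).

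GPX4, the selenoenzyme that reduces lipid peroxides in membranes, had 34.2, 29.1, 27.8 and 16.6 CPM in the siCTRL libraries and 23.1, 17.9, 23.8 and 23.0 CPM in the siAPEX1 libraries. The siCTRL replicates 1 to 3 (27.8 to 34.2 CPM) all lay above the highest siAPEX1 library (23.8 CPM). The siCTRL replicate 4 was the lowest of all 8 libraries, and the groups overlapped through this library. The log2 fold change was -0.30 (standard error 0.185, 95% interval -0.68 to 0.07, edgeR adjusted p = 0.221), and single libraries moved it in both directions: it was -0.46 without that library (adjusted p = 0.0390), -0.18 without siCTRL replicate 1 (adjusted p = 0.546) and -0.20 without siAPEX1 replicate 2 (adjusted p = 0.508). SOD1, the cytosolic copper and zinc superoxide dismutase, had 31.7, 29.1, 35.2 and 28.8 CPM in the siCTRL libraries and 31.3, 36.5, 32.4 and 29.4 CPM in the siAPEX1 libraries. The groups covered nearly the same range, and the log2 fold change was 0.05 (standard error 0.145, 95% interval -0.24 to 0.34, edgeR adjusted p = 0.831). Catalase, the haem enzyme of peroxisomes, had 8 counts in each siCTRL library and 2, 6, 7 and 3 counts in the siAPEX1 libraries. This gave 4.01 CPM ± 0.31 (SD, n = 4) against 3.49 CPM ± 1.73 (SD, n = 4), which an exact two-sided permutation test did not separate (p = 0.514). The ratio of the summed counts, after scaling, was 0.886 (95% exact interval 0.468 to 1.63, counting error only), so a change within these bounds was not detectable at this depth.

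Levels of different genes are given here per length, that of all annotated exons of a gene, merged. This length was 1975 bases in SOD1 and 860 in PRDX5, but their canonical transcripts held 871 and 836 words of 25 bases. In CPM, SOD1 was higher than PRDX5 in the siCTRL libraries (31.2 against 19.0). The order of PRDX5, SOD1, GPX4, PRDX6 and PRDX4 below therefore holds for the merged length only. TXN and PRDX1 had 80.5 and 81.4 CPM in the siCTRL libraries and 106 and 94.3 CPM in the siAPEX1 libraries, with overlapping ranges. Their separation below therefore also rests on the length. Whether counts scale with length in libraries made by adding a tail to the 3′ end was not tested. In CPM per kb, TXN was highest with 79.7 ± 1.02 (SD, n = 4) in the siCTRL libraries and 104.9 ± 8.87 in the siAPEX1 libraries, followed by PRDX1 with 48.4 ± 6.77 and 56.1 ± 5.22, and the ranges of these genes did not meet in either group. PRDX5 followed with 22.1 ± 3.60 CPM per kb in the siCTRL libraries and 16.6 ± 3.75 in the siAPEX1 libraries. SOD1 (15.8 ± 1.51 and 16.4 ± 1.53 CPM per kb), GPX4 (14.6 ± 4.03 and 11.9 ± 1.49), PRDX6 (13.3 ± 2.35 and 10.2 ± 0.670) and PRDX4 (13.0 ± 2.11 and 10.3 ± 1.42) lay within each other's spread in the siCTRL libraries. PRDX3 was lower, with 5.80 ± 0.506 and 7.54 ± 1.14 CPM per kb, and CAT lowest of the 9 detected genes with 1.12 ± 0.0860 and 0.974 ± 0.483. In the siAPEX1 libraries PRDX5 and SOD1 had nearly the same mean, and the ranges of PRDX3 and PRDX4 overlapped.

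**Figure D3:**
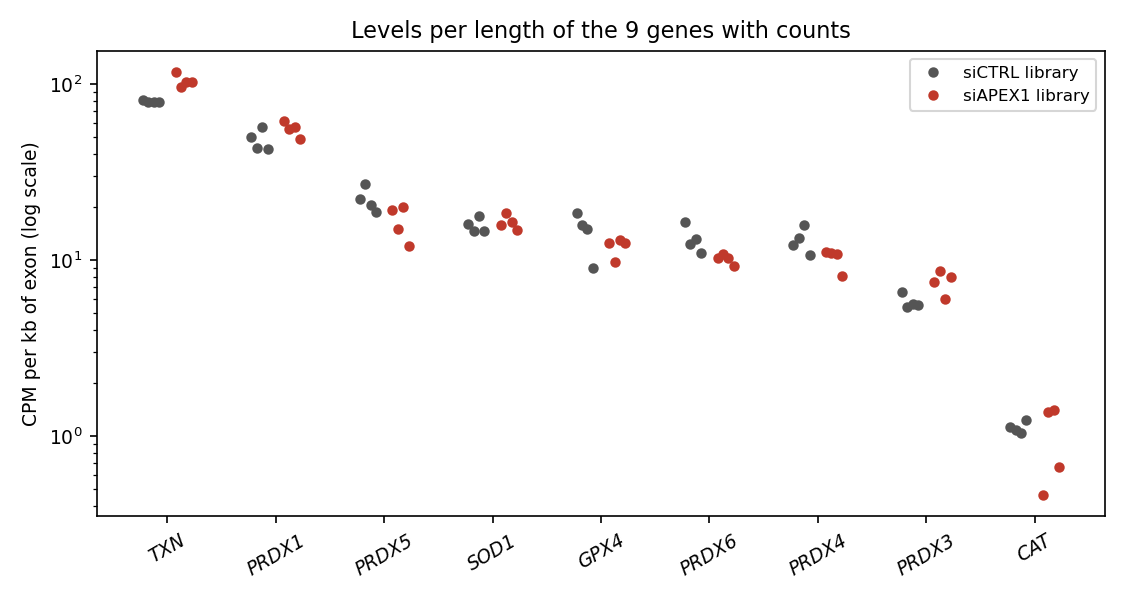
Levels per length (CPM per kb of merged annotated exons, log scale) of the 9 genes with counts, in order of their mean in the siCTRL libraries, 1 point per library. TXN and PRDX1 stand above the other genes in both groups, and CAT is lowest at about 1 CPM per kb.

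Together the 10 genes took 317 CPM ± 27.0 (SD, n = 4) in the siCTRL libraries and 340 CPM ± 20.3 (SD, n = 4) in the siAPEX1 libraries, with overlapping ranges (282.2 to 339.2 and 315.3 to 364.8). TXN made up 25.5% ± 2.18 (SD, n = 4) of their counts in the siCTRL libraries and 31.1% ± 1.97 in the siAPEX1 libraries. Such a share does not depend on the scaling, but it also rises where the other genes fall, so it does not tell whether TXN itself rose. PRDX6 made up 9.64% ± 1.12 and 6.93% ± 0.373, and PRDX1 ranged from 23.6% to 28.4% and from 26.2% to 28.4%. All 4 siAPEX1 libraries had a higher share of TXN than any siCTRL library, though narrowly (lowest 28.8% against highest 28.4%). They also had a lower share of PRDX6 (highest 7.43% against lowest 9.02%).

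Reads from near-identical copies could be lost from these counts, because the aligner's gene counting keeps only reads with a single place in the genome. Of the 25-base words of the canonical transcript, 19.9% in TXN, 15.3% in PRDX3, 8.70% in PRDX6 and 49.3% in PRDX1 were shared with transcripts of other genes, and none in PRDX4, GPX4 and CAT. In PRDX1 most of the shared words came from MMACHC, which overlaps it on the opposite strand (501 shared exonic bases) and had at most 2 counts. Reads from such an overlap have a single place in the genome, so the 49.3% does not measure reads lost to copies. Whether reads on the shared bases were assigned to PRDX1 can depend on the strand setting, which is not given. The 21 annotated pseudogenes of the 10 genes had 5 counts in total, all of them on TXNP3 in the siAPEX1 libraries. The levels of TXN and PRDX3 are uncertain to the extent of their shares. For PRDX1 and PRDX2, whose shares include the overlap with a gene on the opposite strand, the extent was not measured.

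The genes that work with these enzymes were taken as 6 lists, of which 36 genes were tested. Of these, 8 were called lower and 5 higher, where 15.8% of all genes tested were called lower and 15.9% higher. The lists were chosen for their function, with earlier results of these data known. Of the other genes of the thioredoxin system, 7 of 12 were tested, 2 were called higher and 0 lower (also 0 lower at an unadjusted p under 0.05), and the median of their log2 fold changes was 0.12 where that of all genes tested was -0.00347. SESN2, the stress-induced sestrin, rose from 2.51 CPM ± 0.835 to 11.7 CPM ± 3.43 (SD, n = 4 each, log2 fold change 2.21, standard error 0.337, edgeR adjusted p = 1.42e-06). TXNDC17, a thioredoxin-like protein of the cytosol, rose from 14.2 CPM ± 0.968 to 21.9 CPM ± 2.78 (log2 fold change 0.63, standard error 0.187, edgeR adjusted p = 0.00837). With library size alone or with DESeq2, SESN2 remained called and TXNDC17 did not (adjusted p = 0.229 and 0.144). The direct partners of TXN did not pass the test. TXNRD1, the cytosolic thioredoxin reductase, differed by 0.12 on the log2 scale (179.6 CPM ± 7.70 and 194.5 CPM ± 13.0, edgeR adjusted p = 0.371), and by -0.23 with library size alone. TXN2, the mitochondrial thioredoxin, had 0.08 (adjusted p = 0.843), and SRXN1, the sulfiredoxin that repairs overoxidized peroxiredoxins, 0.52 (standard error 0.297, adjusted p = 0.185). TXNRD2, the mitochondrial reductase, had 4, 4, 6 and 3 counts against 1, 3, 2 and 3, and TXNIP, the thioredoxin inhibitor, at most 1 count in any library, so neither was tested.

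**Figure D4:**
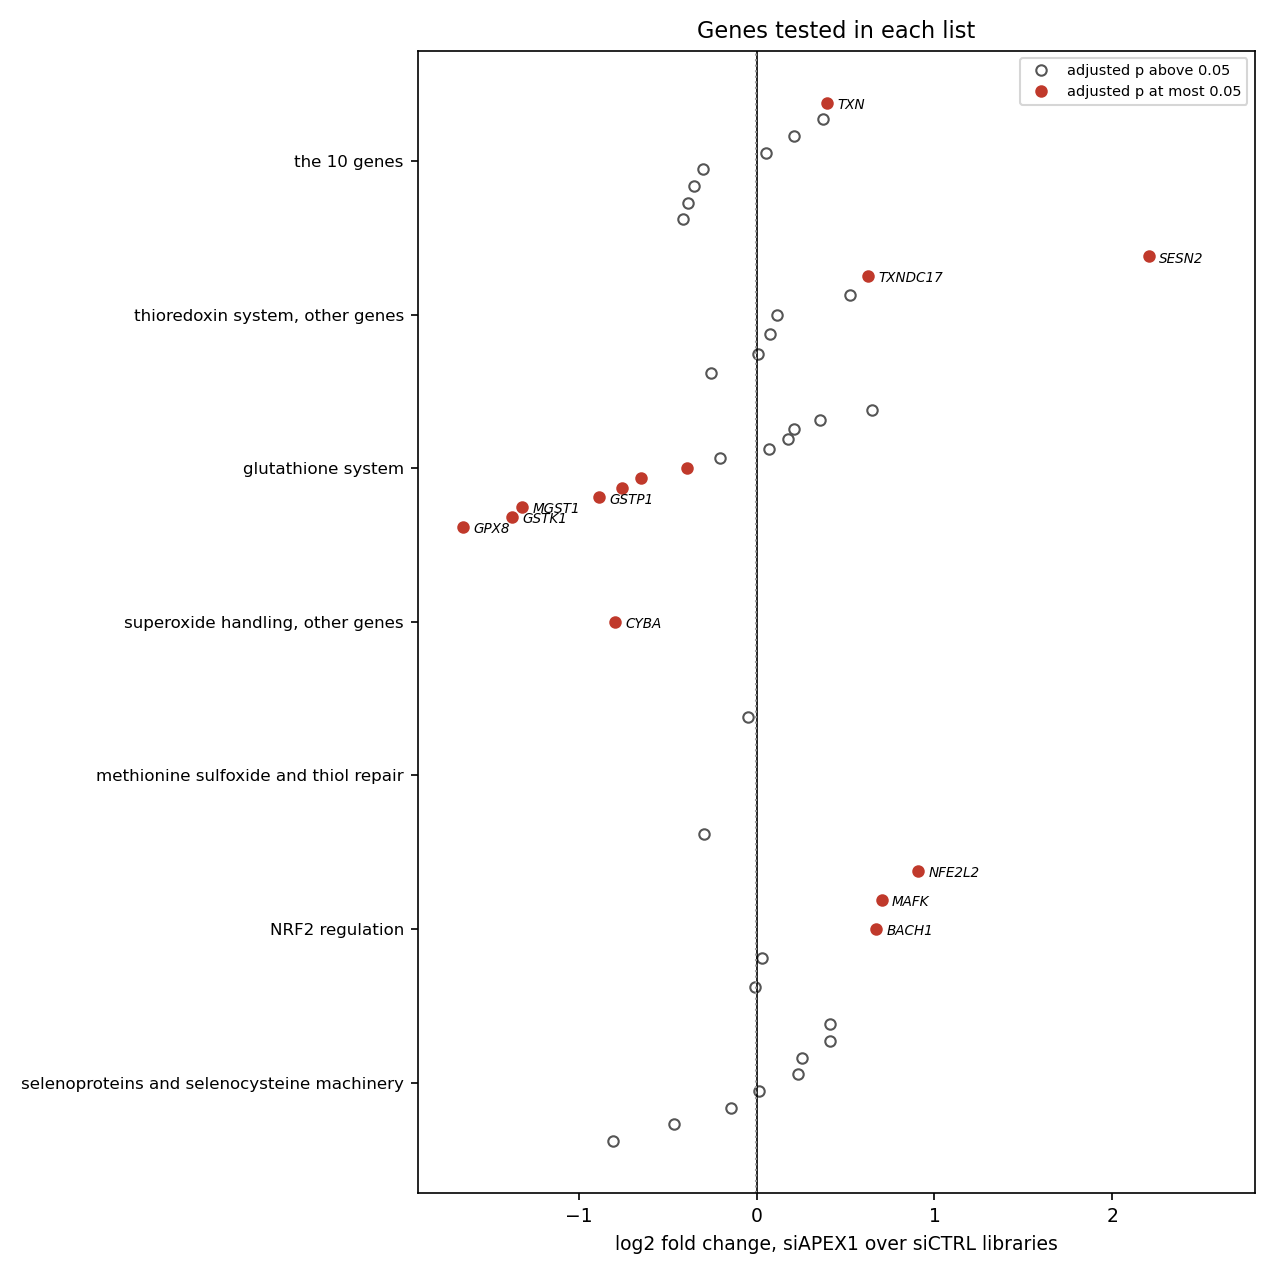
Log2 fold changes (siAPEX1 over siCTRL) of the tested genes of the 10 and of 6 lists, filled where the adjusted p was at most 0.05, with a dotted line at the median of all genes tested. The called genes of the glutathione list all lie to the left of 0 and those of the NRF2 list to the right.

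The glutathione system had the most genes called: 7 of 13 tested (of 21) were lower and 0 higher (1 higher at an unadjusted p under 0.05), and the median of their log2 fold changes was -0.39. Over all genes tested 15.8% were called lower. DESeq2, which gave an adjusted p for 17 genes of the list, called 5 lower and 0 higher, of which 4 were among these 7 and the fifth was GPX1. With library size alone 7 were called lower. GPX8, a glutathione peroxidase of the endoplasmic reticulum, fell from 13.8 CPM ± 2.83 to 4.31 CPM ± 1.61 (SD, n = 4 each, log2 fold change -1.65, standard error 0.300, edgeR adjusted p = 2.77e-05). GSTK1, a glutathione transferase of mitochondria and peroxisomes, fell by 1.38 on the log2 scale (standard error 0.302), and the microsomal transferase MGST1 fell by 1.32 (standard error 0.133). GSTP1, the main cytosolic glutathione transferase of many tumours, fell from 116 CPM ± 9.49 to 62.9 CPM ± 3.78 (SD, n = 4 each, log2 fold change -0.88, standard error 0.109, edgeR adjusted p = 1.55e-08). GSR, which keeps glutathione reduced, differed by 0.18 on the log2 scale (adjusted p = 0.381), and by -0.17 with library size alone. GPX1, the cytosolic selenium-dependent peroxidase, missed the filter with 12, 11, 12 and 14 counts in the siCTRL libraries and 2, 2, 1 and 1 in the siAPEX1 libraries. Its siAPEX1 libraries all lay below its siCTRL libraries, an order found for 14.9% of all genes tested. The ratio of summed counts after scaling was 0.193 (95% exact interval 0.0675 to 0.451, counting error only).

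Of the 6 genes of the NRF2 list, which regulate the antioxidant response, 5 were tested, 3 were called higher and 0 lower (also 0 lower at an unadjusted p under 0.05), and the median of their log2 fold changes was 0.67. Over all genes tested 15.9% were called higher and 15.8% lower. NFE2L2, which encodes NRF2 itself, had 18.1, 26.2, 22.7 and 21.0 CPM in the siCTRL libraries and 43.6, 43.0, 39.6 and 39.7 CPM in the siAPEX1 libraries. It rose without overlap, an order not counted over all genes tested (log2 fold change 0.91, standard error 0.149, edgeR adjusted p = 5.02e-06). MAFK, a small MAF partner of NRF2, rose by 0.70 on the log2 scale (adjusted p = 0.00124), and BACH1, a repressor at the same elements, 0.67 (adjusted p = 0.0394), so that both a partner and a repressor were among the 3. With library size alone MAFK and BACH1 were no longer called (adjusted p = 0.0898 and 0.306). BACH1 was also lost with DESeq2 (adjusted p = 0.304), with no filter on low counts (0.224), in the set that reached 10 counts in all libraries (0.0632) and, of the libraries left out in turn, in all cases but siCTRL replicate 4 and siAPEX1 replicate 1. KEAP1, the adaptor that targets NRF2 for degradation, missed the filter with 13, 14, 11 and 10 counts against 7, 3, 0 and 3. The ratio of its summed counts after scaling was 0.426 (95% exact interval 0.212 to 0.800, counting error only), and an exact two-sided permutation test of the CPM gave p = 0.0857. Among the other superoxide genes CYBA, a subunit of NADPH oxidases, was the only one of the 8 genes found in the table that had enough counts for the test, and it fell from 27.0 CPM ± 7.47 to 15.5 CPM ± 2.62 (log2 fold change -0.79, standard error 0.203, edgeR adjusted p = 0.00216). CCS, the copper chaperone of SOD1, had 5, 3, 11 and 10 counts against 5, 3, 3 and 3. None of the 2 tested genes of methionine sulfoxide and thiol repair and none of the 8 tested selenoprotein and selenocysteine genes were called in the main edgeR fit or by DESeq2. At an unadjusted p under 0.05 the main edgeR fit had 0 of the former and 2 of the latter, both lower. With library size alone 1 of the 2 and 3 of the 8 were called lower, and in the set that reached 10 counts in all libraries SELENOF was (adjusted p = 0.0225). With no filter on low counts 2 of 5 methionine sulfoxide and thiol repair genes were called lower. Without siCTRL replicate 1, siCTRL replicate 4 or siAPEX1 replicate 4, 1 of the 8 selenoprotein and selenocysteine genes was called lower.

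The promoters of the 10 genes were searched for the core of the antioxidant response element, the site at which NRF2 binds, and for the AP-1 site, since APE1 is known to act on AP-1. RefSeq windows from 250 bases before to 50 bases after the start were found for 7 genes, 10 windows in all, and not for PRDX1, PRDX6 and SOD1. The letters TGACNNNGC, on either strand, were in 13.3% of all 35116 windows and those of the AP-1 site, TGANTCA, in 7.71%. Neither was found in the 10 windows, which says only that these letters are not within them.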

How the data were processed

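RNA-seq libraries had been prepared in quadruplicate from total RNA with a SMARTer small-RNA kit that adds a tail to the 3′ end of RNAs, a protocol also meant to capture longer RNAs, and sequenced single-end. After trimming with cutadapt, the authors mapped the reads to GRCh38 with STAR 2.5.3a, which also counted them per Ensembl gene. The deposited values are these raw counts, whole numbers without normalization. The annotation release and the strand setting are not given in the sources used here. The study calls the replicates biological, but the labels do not say that they were separate cultures, and a p-value then measures the spread between these libraries.

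Genes were matched by identifier to GENCODE 44, which held 57532 of 58302. The groups were compared with edgeR 4.0.16 under R 4.3.3 (TMM factors, glmQLFit and glmQLFTest, group as the only term, Benjamini-Hochberg adjustment) on the 5368 genes kept by filterByExpr (minimum count 10, minimum total 15), which held 97.5% to 98.1% of the counts. The common biological coefficient of variation was 0.0832. A gene was called at an adjusted p of at most 0.05. For single genes an exact permutation test over all 70 labelings was added. Precision is that of 1348386 to 1949886 counts per library, and count intervals and floors cover counting error only. The alternatives were other scalings, DESeq2 1.42.0, other filters on low counts, a replicate block and leaving out each library. The programs were tested on simulated counts. The 10 genes and the lists around them were chosen with earlier results of these data known. Named from each list were the called genes (at most the 4 with the largest change in each direction) and the direct partners of the 10 genes. SOD2 matched no row by symbol and was not analysed here.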

Additional observations from a re-analysis of the deposited data

Results flagged for a closer look

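Within groups of 4 libraries, single values far from the other 3 were sought by Dixon's test in the CPM of the 9 detected genes and in their sum, 20 groups in all, of which chance flags about 1 in 20. Values stood apart in 3 groups. PRDX3 had its highest siCTRL value in replicate 1 at 22.1 CPM, with the next library at 19.0 CPM and the lowest at 18.4 CPM. PRDX4 had its lowest siAPEX1 value in replicate 4 at 15.1 CPM, with the next at 20.2 CPM. GPX4 had its lowest siAPEX1 value in replicate 2 at 17.9 CPM, with the next at 23.0 CPM. Without the library concerned the direction of each gene was the same, and none of the 3 genes passed the test at an adjusted p of at most 0.05.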

How the results depend on the processing

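Of 128 values of the 8 tested genes (16 alternatives each), 113 kept their direction and their side of the threshold. The other 15 were 9 that passed only under the alternative, 2 that no longer passed (TXN, given above) and 4 that changed sign. With library size alone, which moved the median over all tested genes to -0.34 (log2), PRDX1 turned to -0.13 and SOD1 to -0.29, 0 of the 8 genes were called higher and 4 were called lower (PRDX4 -0.69, PRDX5 -0.75, PRDX6 -0.73 and GPX4 -0.64). Relative to that median TXN stood at 0.40 and PRDX6 at -0.38. With the TMM factors these distances were also 0.40 and -0.38. A change of factors moves all genes nearly alike, so the distances do not test the scaling. The share of higher calls among all calls was then 14.9%, where the TMM factors gave 50.3%. With no filter on low counts SOD1 was at -0.0439, 0 genes were called higher and 1 lower, and in the set that reached 10 counts in all libraries SOD1 was at -0.0358 and 1 gene was called lower, PRDX6 in both. DESeq2 called 902 of all genes where edgeR called 1703, and it called TXN (adjusted p = 0.0401). Leaving out each library in turn gave 1 to 2 genes called higher and 0 to 2 called lower, with TXN at a log2 fold change of 0.37 to 0.46 (adjusted p from 0.00138 to 0.0111). PRDX3 was added without siAPEX1 replicate 3, and PRDX6 and GPX4 without siCTRL replicate 4.

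No pairing by replicate number was seen in the deviations from the group means. Their correlations ran from -0.04 to -0.00348 for same-numbered libraries and from -0.04 to 0.04 for the others. Whether same-numbered libraries were prepared together is not given by the labels. The replicate block gave 1595 called genes and 1 of the 8 genes, TXN (0.39, adjusted p = 0.00457), and changed no other call. PRDX3 to PRDX6, GPX4 and SOD1 had at most 76 counts in a library, which limits what could be told from 0 to changes about as large as the intervals given.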
